A study of Mus musculus with 2 samples.

Results

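The Fc gamma receptor genes of the mouse and the chain through which the activating ones signal were followed here in nuclear RNA of macrophages. The 5 genes, of 55536 in the deposited gene tables, were taken by symbol: Fcgr1, Fcgr3 and Fcgr4, which encode activating receptors, Fcer1g, which encodes the common gamma chain, and Fcgr2b, which encodes the inhibitory receptor. All 5 passed the filter on low counts. The RNA came from bone marrow-derived macrophages of C57BL/6J mice, whose age and sex were not collected. The cells had Lipid A, the part of bacterial endotoxin that Toll-like receptor 4 recognises, at 100 ng/ml for 12 h, then 12 h without it, then 100 ng/ml again for 120 min. From that 1 group, 2 libraries were made after depletion of ribosomal RNA, replicate 1 from 1 µg and replicate 2 from 500 ng of RNA, so input and replicate cannot be told apart, and there was no untreated or singly treated group. Both replicates carry 1 donor label, so the spread between them may be technical. One label field names the fraction nuclear and another nucleoplasmic.

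Fc gamma receptors bind the constant part of immunoglobulin G and let macrophages take up and respond to antibody-coated particles. The activating receptors signal through the gamma chain, whose paired tyrosines (an ITAM) are phosphorylated by Src family kinases and then recruit the kinase Syk. Fcgr2b carries a single-tyrosine motif (an ITIM) that recruits phosphatases, and the balance of both kinds sets how strongly a macrophage answers an immune complex. Nuclear RNA holds finished transcripts as well as ones that still keep introns, so the transcript types are given below beside the gene levels.

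The sequences that follow show what separates the transcripts and genes compared here. They were read from the GENCODE M21 transcripts on GRCm38 (mm10), 5′ to 3′ on the coding strand.
The first pair is shown because these motifs give the gamma chain and Fcgr2b their opposite roles; capitals mark the tyrosine codons.
Fcer1g ITAM codons: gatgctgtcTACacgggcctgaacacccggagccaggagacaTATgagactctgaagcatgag
Fcgr2b ITIM codons: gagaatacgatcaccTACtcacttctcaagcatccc
The ITAM codons lie in coding exons of Fcer1g at chr1:171229880-171230081 on the minus strand, across an intron, and the ITIM codons in a coding exon of Fcgr2b at chr1:170961062-170961097, also on the minus strand.
The next is the Fcgr2b exon of 141 bases, or 47 codons, that codes for part of the cytoplasmic tail, at chr1:170963325-170963465 on the minus strand. It is shown because the transcripts differ in it: Fcgr2b-201 and Fcgr2b-204 hold it whole, Fcgr2b-203 holds only the 57 bases in capitals, and Fcgr2b-202 skips it.
Fcgr2b tail exon: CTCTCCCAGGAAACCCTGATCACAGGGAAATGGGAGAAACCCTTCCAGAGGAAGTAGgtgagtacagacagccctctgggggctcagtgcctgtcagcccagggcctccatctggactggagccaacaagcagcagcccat
The exon end at which Fcgr2b-205 reads on into an intron, in capitals, lies at chr1:170965672-170965731 on the minus strand.
Fcgr2b-205 exon to intron: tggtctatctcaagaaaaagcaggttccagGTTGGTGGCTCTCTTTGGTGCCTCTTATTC
The longest run that Fcgr2b and Fcgr3 have in common, 129 bases of coding sequence, shows how alike these genes are.
Fcgr2b and Fcgr3 shared run: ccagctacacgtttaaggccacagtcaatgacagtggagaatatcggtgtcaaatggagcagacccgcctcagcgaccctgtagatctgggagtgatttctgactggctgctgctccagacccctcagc
The run lies across an exon junction in both, at chr1:170966674-170968081 in Fcgr2b and chr1:171054167-171057792 in Fcgr3, both on the minus strand.

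The coding sequences of Fcgr3 and Fcgr2b were 85.2% identical over 786 aligned bases, whereas the other pairs among the 4 receptors were 65.2 to 68.5% identical. Words of 31 bases were used to ask how far reads could be shared between genes. Fcgr3 had 233 of 1733 such words (13.4%) in common with Fcgr2b, and these were 4.15% of the words of Fcgr2b. Fcgr1 and Fcer1g had no word in common with any other annotated gene, and Fcgr4 had 17 of 1226. The antisense gene Gm38204 overlaps Fcgr2b and had 126 of its words in common with it, but it took only 2 counts in replicate 1 and 0 in replicate 2. Whether the counting used strand is not given in the sources used here, so reads of Fcgr2b and Gm38204 cannot be told apart where they overlap. The split of reads between Fcgr3 and Fcgr2b is uncertain for the same reason of shared sequence. On mm10, Fcgr1 (ENSMUSG00000015947.10) lies on chromosome 3 from 96282909 to 96293969 on the minus strand. The others lie within a stretch of chromosome 1. Fcgr2b (ENSMUSG00000026656.15) spans 170958617 to 170976547 on the minus strand and Fcgr4 (ENSMUSG00000059089.4) 171018920 to 171029761 on the plus strand. Fcgr3 (ENSMUSG00000059498.13) spans 171051174 to 171064935 and Fcer1g (ENSMUSG00000058715.11) 171229572 to 171234365, both on the minus strand.

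The libraries held 28450309 counts on genes in replicate 1 and 16940220 in replicate 2. Mitochondrial genes took 4.15% of the counts in replicate 1 and 10.3% in replicate 2, and short structural and mitochondrial RNAs together took 76.0% and 67.8% of the TPM. TPM is a level per length that sums to a fixed total in each library, so these RNAs lower the TPM of every other gene and do so unequally. All 7 macrophage markers were detected, meaning at 1 TPM or more in both libraries. Their summed level was 2295 TPM in replicate 1 and 2430 TPM in replicate 2. Lyz2, lysozyme, had 1300 and 1229 TPM, and Adgre1, which encodes F4/80, had 537 and 749 TPM. None of the markers of B cells (5 genes), natural killer cells (5), mast cells and basophils (5), neutrophils (6), dendritic cells (5), platelets (4) and T cells (3) was detected, and the highest by the mean of both libraries was Zbtb46 of the dendritic list with 0.37 and 0.86 TPM. A second quantification tool, whose deposited tables cover transcripts, listed the T cell gene Cd3d at 1.00 and 5.57 TPM where the first tool listed it at 0.03 and 0.00 TPM, and the natural killer cell gene Klre1 at 0.50 and 2.38 TPM, against 0.01 and 0.04 TPM by the first tool. It gave Zbtb46 0.389 and 1.05 TPM. By the first tool the defining genes Pax5, Ncr1, Klrb1c and Ly6g, of cells that also carry Fc gamma receptors, were at or near 0.

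All 5 genes were expressed, and Fcer1g and Fcgr2b stood well above the activating receptors. In each library the order of level was Fcer1g, Fcgr2b, Fcgr1, Fcgr4 and Fcgr3. Fcer1g had 469 TPM in replicate 1 and 506 TPM in replicate 2. Its rank was 43 in replicate 1 and 41 in replicate 2 among the 8726 detected protein-coding genes, whose median was 6.53 TPM in replicate 1 and 9.53 TPM in replicate 2. Fcgr2b, the only inhibitory receptor of the family, had 276 and 225 TPM and ranks of 72 and 111. Fcgr1, the high-affinity receptor, had 109 TPM in replicate 1 and 48.2 TPM in replicate 2. Fcgr4, which in the mouse binds IgG2a and IgG2b, had 50.05 and 24.96 TPM, and Fcgr3, the low-affinity activating receptor, 23.2 and 23.7 TPM. Replicate 1 was thus higher for Fcgr1, Fcgr4 and Fcgr2b on the TPM scale, and replicate 2 a little higher for Fcer1g and Fcgr3. In bulk RNA, fewer cells with a transcript and less of it per cell cannot be told apart.

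**Figure D1:**
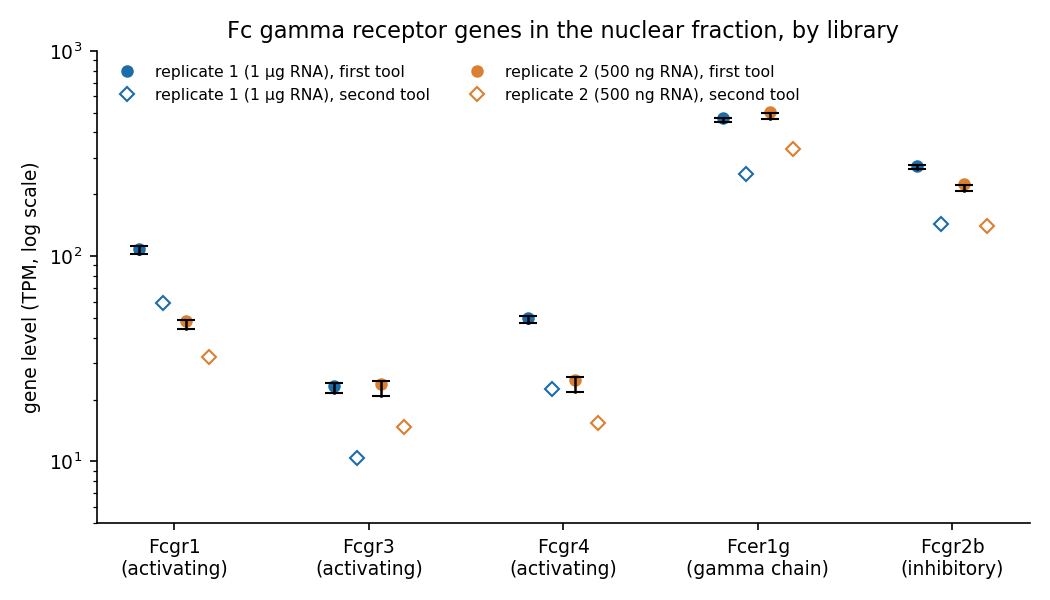
Gene level in TPM (log axis) of the 5 genes in replicate 1 and replicate 2. Filled circles give the first tool with the deposited interval as a black line with end bars, open diamonds the second tool. The order of the genes is the same in both libraries and with both tools, and Fcgr4 and Fcgr3 lie side by side in replicate 2.

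The means over both libraries were 488 ± 25.8 TPM for Fcer1g, 250.4 ± 36.2 TPM for Fcgr2b, 78.5 ± 42.8 TPM for Fcgr1, 37.5 ± 17.7 TPM for Fcgr4 and 23.5 ± 0.332 TPM for Fcgr3 (SD, n = 2). The deposited tables also give an interval around a posterior mean for each gene, whose level is not given in the sources used here and which covers counting and read assignment only. In replicate 2 the TPM of Fcer1g and Fcgr2b lies above their intervals (467 to 495 TPM and 208 to 221 TPM), which are drawn around the lower posterior means. Neighbours in the order had separate intervals in both libraries, with 1 exception. Fcgr4 (47.2 to 51.0 TPM) lay 2.16-fold above Fcgr3 (21.6 to 24.2 TPM) in replicate 1. In replicate 2 their intervals overlapped (21.7 to 25.7 TPM for Fcgr4, 20.9 to 24.7 TPM for Fcgr3) and the ratio was 1.05. The second tool placed the genes in the same order in both libraries, at 252 and 332 TPM for Fcer1g, 143 and 139.7 TPM for Fcgr2b, 59.0 and 32.4 TPM for Fcgr1, 22.6 and 15.4 TPM for Fcgr4 and 10.4 and 14.8 TPM for Fcgr3. Its values were lower throughout, and Fcgr4 and Fcgr3 were again alike in replicate 2.

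The activating receptors together had a lower level than the inhibitory one when all transcripts were counted. Fcgr1, Fcgr3 and Fcgr4 summed to 182 TPM in replicate 1, against 276 TPM of Fcgr2b, a ratio of 0.659. In replicate 2 they summed to 96.9 TPM, against 225 TPM of Fcgr2b, a ratio of 0.431. The log2 ratio, activating over inhibitory, was -0.91 ± 0.43 (SD, n = 2), negative in both libraries with both tools. Fcgr1 made up 59.7% of the activating sum in replicate 1 and 49.8% in replicate 2, Fcgr4 27.5% and 25.8%, and Fcgr3 12.8% and 24.5%. Fcgr1 was therefore the largest part of the activating sum in each library. The gamma chain exceeded these 3 receptors: Fcer1g over their sum was 2.58 in replicate 1 and 5.22 in replicate 2, a log2 ratio of 1.88 ± 0.72 (SD, n = 2). With 2 libraries of 1 group there is no test of these ratios.

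On protein-coding transcripts alone, activating and inhibitory receptors had close to the same level. The activating receptors then had 151 TPM, against 139.9 TPM of Fcgr2b, in replicate 1, and 92.4 TPM, against 93.5 TPM of Fcgr2b, in replicate 2. The log2 ratio was 0.11 and -0.016, a mean of 0.046 ± 0.088 (SD, n = 2). The excess of Fcgr2b was thus in transcripts not annotated as protein-coding. This split rests on the annotated models, which for Fcgr4 include no such transcript. The second tool gave log2 ratios of 0.050 and 0.040 on the protein-coding transcripts. Fcer1g over the activating sum stayed above 1 at the level of protein-coding transcripts, at 3.04 in replicate 1 and 5.44 in replicate 2.

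**Figure D2:**
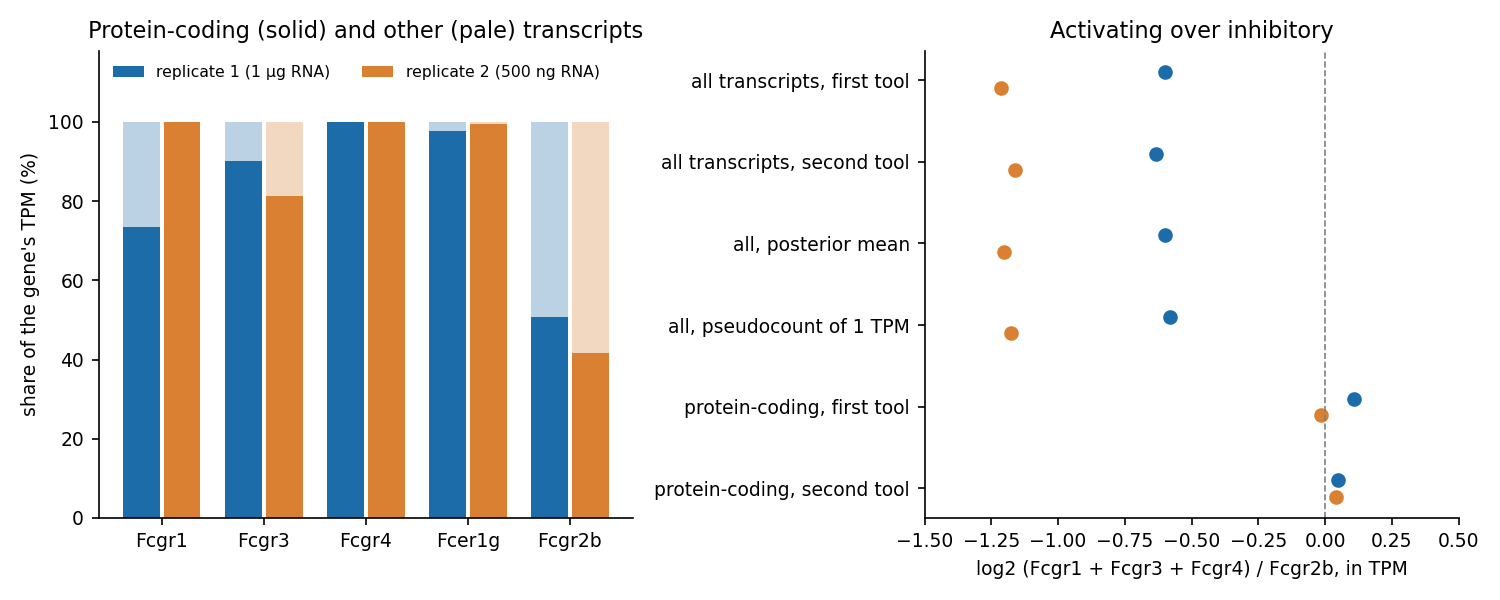
Left, share of each gene's TPM on protein-coding transcripts (solid) and on other transcripts (pale), in percent, for replicate 1 and replicate 2. Right, log2 ratio of the summed activating receptors over Fcgr2b in each library by transcripts, tool and estimate. Fcgr2b has the most on other transcripts, and the ratio moves to near 0 on protein-coding transcripts.

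Of the 5 genes, Fcgr2b had the highest share of its level on transcripts annotated as other than protein-coding. These took 49.3% of its TPM in replicate 1 and 58.4% in replicate 2, and 55.4% and 61.2% with the second tool. In Fcgr1 the share was 26.6% in replicate 1 and 0% in replicate 2, in Fcgr3 9.78% and 18.8%, and in Fcer1g 2.22% and 0.595%. Fcgr4 has 1 annotated transcript, which is protein-coding. Over 7263 detected protein-coding genes that have a transcript of another type, the median share was 28.1% in replicate 1 (interquartile range 12.7 to 46.8%) and 34.5% in replicate 2 (14.7 to 55.9%). The Fcgr2b share was above the upper quartile in both libraries with the first tool, and below it with the second tool, whose upper quartiles were 62.0% and 67.5%.

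Fcgr2b has 7 annotated transcripts, and 5 of them carried nearly all of its level. Fcgr2b-202, protein-coding and without the tail exon shown above, had 112 TPM in replicate 1 and 64.8 TPM in replicate 2, or 40.7% and 28.8% of the gene. Fcgr2b-205 stops in the intron whose first bases are shown above, keeps 1369 bases of it and lacks the ITIM codons. It had 59.9 and 71.2 TPM, so it was below Fcgr2b-202 in replicate 1 and level with or above it in replicate 2, where the deposited intervals (65.0 to 70.2 TPM for Fcgr2b-205, 57.4 to 65.9 TPM for Fcgr2b-202) overlapped. The second tool gave Fcgr2b-205 27.9 and 44.1 TPM and Fcgr2b-202 48.6 and 31.5 TPM, the same order in each library. Fcgr2b-206, a processed transcript of 2 exons that holds the ITIM codons and 397 bases of intron, had 51.1 and 46.4 TPM. Fcgr2b-207, a retained-intron transcript of 2 exons with 214 bases of intron, had 25.2 and 13.7 TPM. In counts, which are not divided by length, Fcgr2b-202 took 6786 and 1693, Fcgr2b-205 5951 and 3038, Fcgr2b-201, the longest, 4474 and 1991, and the short Fcgr2b-206 and Fcgr2b-207 together 1706 and 640.2.

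**Figure D3:**
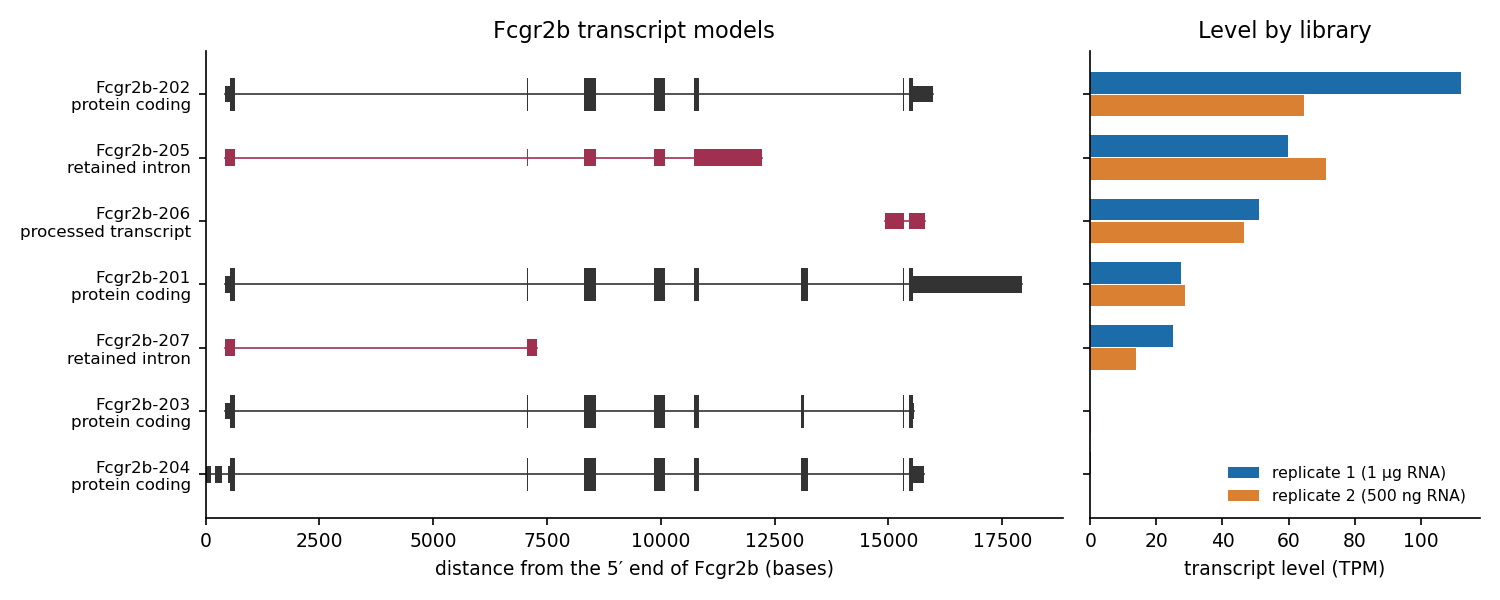
Left, annotated Fcgr2b transcripts by distance from the gene's 5′ end in bases, protein-coding ones in black with coding parts tall, others in red. Right, level of each transcript in TPM in replicate 1 and replicate 2. Fcgr2b-202, which skips the tail exon, leads in replicate 1, and Fcgr2b-205, which stops in an intron, leads in replicate 2.

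The tail exon separates the receptor forms known as b1, which holds it, is the form of B cells and is not internalised well, and b2, which lacks it and is the form of macrophages. Among the protein-coding transcripts Fcgr2b-202, the b2 form, had 80.2% of the TPM in replicate 1 and 69.3% in replicate 2. Fcgr2b-201, which holds the exon, had 27.4 and 28.5 TPM. Fcgr2b-201 also has a last exon that is 1941 bases longer than that of Fcgr2b-202, so reads from that end are credited to it with or without the tail exon. Fcgr2b-204, which holds the whole exon with a short last exon, had 0.17 TPM in replicate 1 and 0.00 TPM in replicate 2, and Fcgr2b-203 had 0.07 and 0.12 TPM. Reads over the exon itself are not in the deposited tables used here, so the level of Fcgr2b-201 is not a measure of the exon.

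The other genes had simpler make-up, with 1 protein-coding transcript leading in each. That of Fcgr1 (ENSMUST00000029748.7) took 73.4% of the gene's TPM in replicate 1 and 100% in replicate 2. The rest was the only other Fcgr1 transcript (ENSMUST00000200420.1), annotated as a target of nonsense-mediated decay. It had 28.9 TPM in replicate 1 and was listed at 0.00 TPM in replicate 2, where the upper bound of its interval was 2.14 TPM. The second tool gave it 24.3 and 2.60 TPM. On the protein-coding Fcgr1 transcript alone, replicate 1 had 79.8 TPM and replicate 2 48.2 TPM. The leading Fcgr3 transcript (ENSMUST00000164044.7) took 79.9% and 76.1% of its gene, and a retained-intron transcript 9.78% and 18.8%. Fcer1g-201 took 95.3% and 96.8%, and the second tool gave it 80.8% and 84.7%, with more on Fcer1g-203, another protein-coding transcript. By the annotated coding sequences of these leading transcripts, Fcgr1 encodes 404 amino acids, Fcgr3 267, Fcgr4 249, Fcer1g 86 and Fcgr2b 293, with 340 in the form of Fcgr2b-201.

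Between the libraries, all 5 genes had a larger share of the scaled counts in replicate 1. Counts were compared by an exact two-sided binomial test per gene with library sizes scaled by TMM, which sets the bulk of genes equal. Benjamini-Hochberg adjustment ran over the 14698 genes whose mean count reached 10, at a threshold of 0.05. This compares 2 libraries and covers counting error only. It called 8801 genes, 59.9% of those tested. Of all genes tested, 30.2% were called with replicate 1 above replicate 2 and 29.7% with replicate 2 above replicate 1, so a call by itself is common. Of the 5 genes, 5 were called, all higher in replicate 1. Fcgr4 had 2518 counts in replicate 1 and 544 in replicate 2, a log2 ratio of 1.63 (adjusted p = 1.60e-153, exact binomial test). Fcgr1 had 9781 and 2400 counts, a log2 ratio of 1.44. These lay above the 95th percentile of all genes tested, which was 1.14. Fcgr2b had 18933 and 7365 counts (log2 ratio 0.78), Fcgr3 1264 and 556 (log2 ratio 0.60, adjusted p = 3.48e-16, exact binomial test) and Fcer1g 9982 and 4829 (log2 ratio 0.46, adjusted p = 4.18e-76, exact binomial test). For Fcgr1 and Fcgr2b the adjusted p was too small to be held and was listed as 0.

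**Figure D4:**
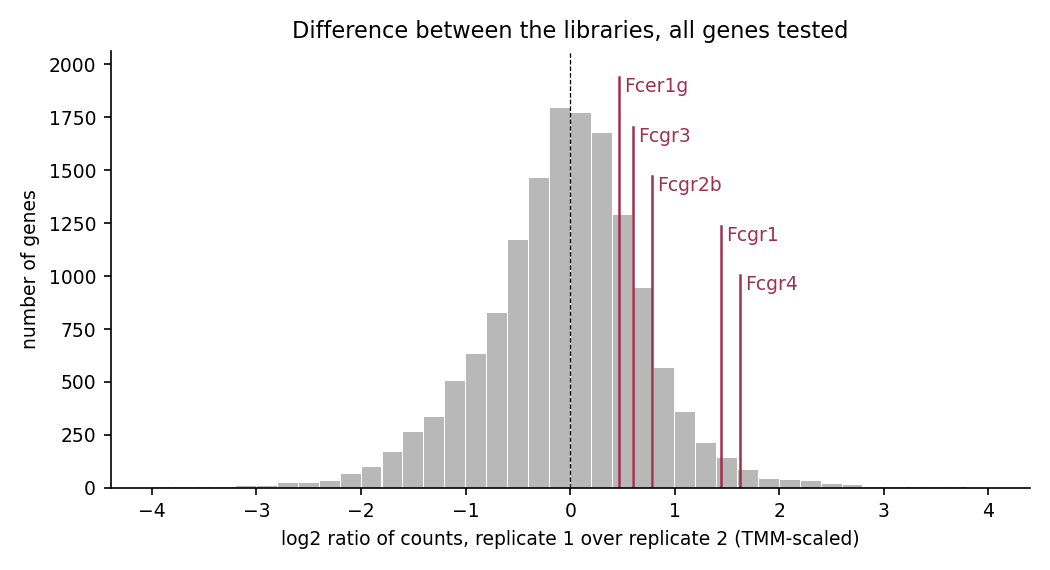
Histogram of the log2 ratio of TMM-scaled counts, replicate 1 over replicate 2, for the 14698 genes tested (55 lie beyond the axis limits of -4 and 4). Red lines mark the 5 genes, all to the right of 0, with Fcgr4 and Fcgr1 farthest out at 1.63 and 1.44.

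The median log2 ratio of the 5 genes was 0.78, beside -0.0093 over all genes tested. All 7 macrophage markers were also called higher in replicate 1, with a median log2 ratio of 0.71. Their summed level was 2295 TPM in replicate 1 and 2430 TPM in replicate 2. The part of the markers' shift in the receptor genes' ratios was not tested. Nor was that of RNA input or of the mitochondrial share given above. By TPM the log2 ratio was negative for Fcgr3 (-0.029) and Fcer1g (-0.11), so the direction of these 2 between the libraries depends on the scale. On TPM rescaled without short structural and mitochondrial RNAs, both were higher in replicate 1. Fcgr3 then had 97.0 TPM in replicate 1 and 73.6 TPM in replicate 2, and Fcer1g 1961 and 1571 TPM. The part of those RNAs in the change of sign was not tested.

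Genes of the activating pathway were present almost in full. Of 18 listed, 17 were detected. On scaled counts, 13 of the 18 were called higher in replicate 1 and 0 in replicate 2, with a median log2 ratio of 0.34. Of all genes tested, 30.2% and 29.7% were called in these directions, which also stands beside the counts for the lists below. By TPM the summed level of the list went the other way, at 799 TPM in replicate 1 and 1006 TPM in replicate 2. Syk, the kinase that binds the phosphorylated ITAM, led with 218 TPM in replicate 1 and 270.4 TPM in replicate 2. Prkcd, protein kinase C delta, had 119.5 and 128 TPM, and Lyn, a Src family kinase, 84.8 and 124 TPM. The gene not detected was the Src family kinase Fgr (0.86 and 1.67 TPM), named after its values were seen, which the second tool put past the limit at 1.14 and 2.06 TPM. All of these lay below Fcer1g in both libraries.

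Genes of the inhibitory pathway were lower. All 10 listed were detected, with a median of 16.8 TPM in replicate 1 and 16.2 TPM in replicate 2, against medians of 36.6 and 41.5 TPM over the activating list. Of the 10, 8 were called higher in replicate 1 and 0 in replicate 2, with a median log2 ratio of 0.64. Ptpn6, the phosphatase SHP-1, had 57.6 and 48.7 TPM, Cbl, a ubiquitin ligase, 39.6 and 44.9 TPM, and Csk, which phosphorylates and inactivates Src family kinases, 33.9 and 30.3 TPM. Inpp5d, named here because it encodes SHIP1, the phosphatase that the Fcgr2b ITIM recruits, had 17.1 and 20.9 TPM. With the first tool, Fcgr2b itself was several times above each of them in both libraries. The second tool gave Ptpn6 73.0 and 116 TPM, against 143 and 139.7 TPM of Fcgr2b, a smaller gap.

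Of 10 listed partners of the gamma chain, 8 were found by symbol and 4 detected. Clec4e, which encodes Mincle and binds glycolipids, had 344 and 513 TPM, Clec4d 48.4 and 72.2 TPM, and Pira2 35.9 and 45.9 TPM. Pira2 belongs to a family of near copies, so its value is uncertain. Of the 4 tested, Pira2 was called higher in replicate 1 and Clec4n, named after its values were seen, in replicate 2 (log2 ratio -0.68). Clec4e alone thus exceeded the 3 activating Fc receptors together in both libraries. Tyrobp, which encodes DAP12, a related ITAM adaptor, had 121 and 60.8 TPM and a log2 ratio of 1.53 between the libraries, near that of Fcgr4. The adaptor list had 2 of 8 genes detected, the second being Hcst at 1.49 and 1.5 TPM, and the next, Cd79b, had 0.30 and 0.78 TPM. Of 3 tested, 1 was called higher in replicate 1 and 0 in replicate 2.

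Of the 14 genes listed as other ITIM receptors, 13 were detected, and 9 were called higher in replicate 1 and 1 in replicate 2. Lilrb4a, which encodes gp49B, had 874 and 1388 TPM, and Sirpa, which binds CD47, 703 and 623 TPM, both above Fcgr2b. Lilr4b had 693 and 875 TPM, but it encodes gp49A, which is known to lack the ITIM, so it is counted on the list without being an ITIM receptor. Lilrb4a and Lilr4b are close copies, and the split of reads between them is uncertain. Clec4a2, called higher in replicate 2 with a log2 ratio of -0.89, and Pecam1, not detected at 0.54 and 0.55 TPM, are named after their values were seen. The second tool gave Pecam1 1.45 and 14.4 TPM, past the limit for detection. The median log2 ratio of the list was 0.43, whereas its summed level was 2632 TPM in replicate 1 and 3302 TPM in replicate 2.

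Of the 13 other Fc receptors, 4 were detected with the first tool. Trim21, a cytosolic antibody receptor, had 37.9 and 73.1 TPM, Fcgrt, which encodes the neonatal Fc receptor, 12.6 and 7.19 TPM, and Fcrls 5.04 and 4.03 TPM. Of 5 tested, Fcgrt and Fcrls were called higher in replicate 1 and Trim21 in replicate 2. The median log2 ratio of these 5 was 0.58. Fcer2a and Fcrl5 are named after their values were seen. The second tool put Fcer2a past the limit for detection at 1.39 and 4.009 TPM, against 0.03 and 0.12 TPM by the first tool. It put Fcrl5 below the limit in replicate 1, at 0.888 and 1.42 TPM, against 1.05 and 1.57 TPM by the first tool. All 7 listed transcription factors known to act on Fc receptor genes were detected, and all 7 were called higher in replicate 1, with a median log2 ratio of 0.82. Irf1, an interferon-regulated factor, had 146 and 131 TPM, and Spi1, which encodes the myeloid factor PU.1, 47.9 and 49.3 TPM.

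**Figure D5:**
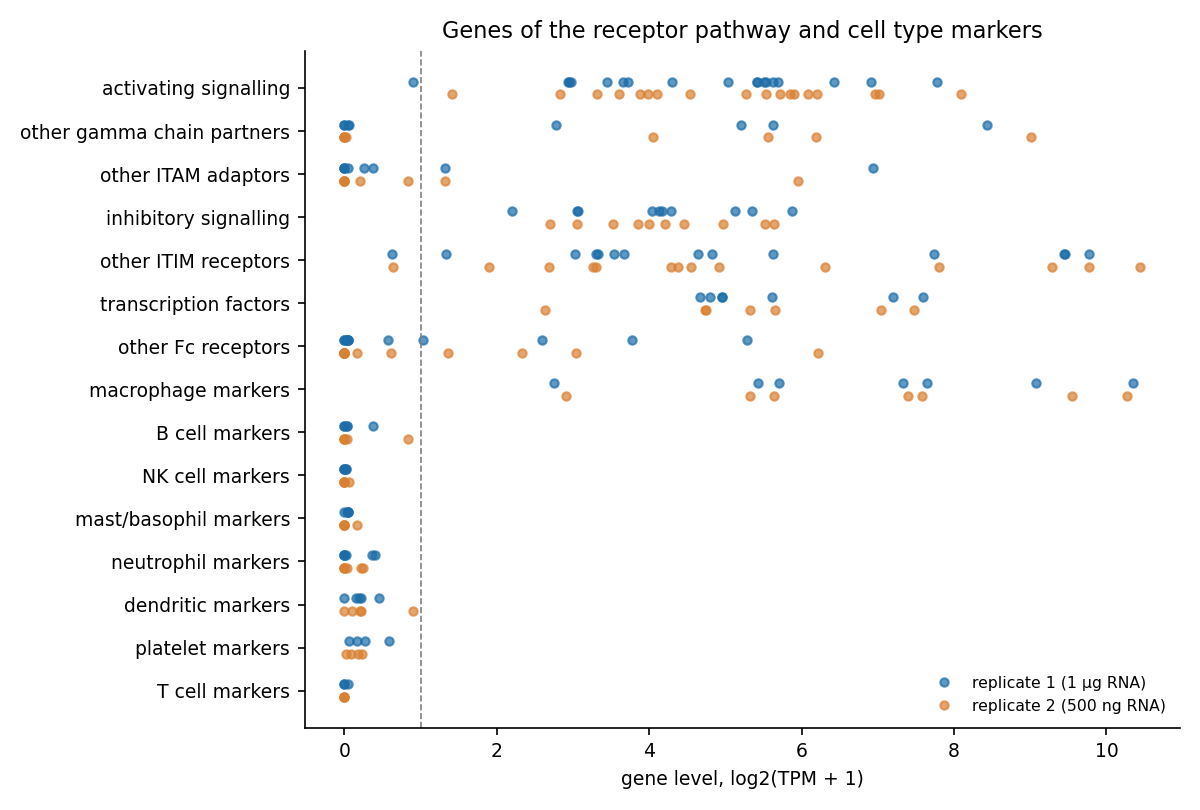
Level as log2(TPM + 1) of each gene of the pathway and marker lists in replicate 1 (upper dots) and replicate 2 (lower dots), with the dashed line at 1 TPM. All 7 macrophage markers, 7 transcription factors and 10 inhibitory signalling genes lie to the right of the line, the other pathway lists have genes on both sides, and markers of the 7 other cell types lie to its left.

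The protein-coding genes nearest in level to each member were found by distance on log2(TPM + 1) over the 2 libraries. For Fcgr1 these were Cfb, complement factor B (113 and 52.9 TPM, distance 0.14), and Siglec1 (91.6 and 44.0 TPM, distance 0.28). For Fcgr4 they were Parp10 (52.4 and 26.5 TPM, distance 0.11) and Tlr9 (51.3 and 28.4 TPM, distance 0.19).  Fcer1g lay nearest Lgals3bp (distance 0.12) and Ifit2 (0.15), Fcgr2b near H2-T23 (0.16), and Fcgr3 nearest Rnaset2a (0.032) and Lpcat2 (0.035). With 2 libraries of 1 group this likeness is of level only.

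Around the receptor genes on chromosome 1 few other genes were detected. Within 50 kb of Fcgr2b 7 genes are annotated and the only one detected was Fcgr4. Within 50 kb of Fcgr3, 1 of 6 was detected, again Fcgr4, and within 50 kb of Fcgr4, 2 of 7, namely Fcgr2b and Fcgr3. The Fc receptor-like genes Fcrla and Fcrlb, within 50 kb of Fcgr2b, had 1 count each in replicate 1 and 0 in replicate 2. Near Fcer1g, 5 of 9 genes were detected. Near Fcgr1, 9 of 17 were detected, most of them in a cluster of histone genes such as Hist2h2aa2 (37.9 and 12.3 TPM), whose near copy Hist2h2aa1 makes its value uncertain. The neighbours of Fcgr1 and Fcer1g had lower levels than the gene they lie beside in both libraries, apart from the small nuclear RNA gene Gm24830, which had 27 counts in replicate 1 and 6 in replicate 2 and, being short, 115 and 47.2 TPM.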

How the data were processed

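Total RNA of the nuclear fraction was sequenced in 2 libraries of 1 group. The first tool's deposited tables, per the file headers, hold expected counts, TPM, the posterior mean of TPM with the bounds of an interval (treated here as a signal on the TPM scale) and each transcript's percent of its gene. The second tool's deposited transcript tables hold estimated counts and TPM. Neither the tools and their versions nor the aligner and strand setting are given in the sources used here. The annotation is GENCODE M21 on mm10. Second-tool values were summed per gene. Rows that name no mouse gene took 1.79% of the counts in replicate 1 and 0.318% in replicate 2 and were left out. Counts were rounded and scaled by TMM (edgeR 4.0.16, R 4.3.3). They were tested per gene with scipy 1.17.1 on genes with a mean of 10 counts or more, 0.5 being added to each count in log2 ratios. The test was tested on data simulated with counting error only, which cannot show how it behaves with other variation between libraries. DESeq2 1.42.0 gave alternative size factors. Intervals and tests cover counting error only.

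The genes named were the 5 members, the 3 highest of each pathway list, markers of other cells above 1 TPM, the 2 genes nearest each member in level and genes within 50 kb; a few that this rule names are not reported here. Members, lists and tests were chosen with earlier results of these data known. No column of values was left without a sample. Protein sequences were not used here.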

Additional observations from a re-analysis of the deposited data

How the results depend on the processing

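No paired analysis was possible because the labels give 1 group only, with 1 library per replicate number. Over 18 results and 64 alternative values, apart from those that leave out a replicate, 47 kept their direction and their side of the threshold or stayed within 1 SD of the reported value, 13 moved and 4 changed sign. Leaving out a replicate gives the other library's value, which with 2 libraries always lies within 1 SD of the mean and says nothing of stability. The log2 ratio of activating over inhibitory receptors, -0.91, became 0.046 on protein-coding transcripts and 0.045 on the same transcripts with the second tool, an alternative chosen after seeing the data; it was -0.60 without replicate 2 and -1.21 without replicate 1. The log2 ratio of Fcer1g over the activating receptors ran from 1.37 to 2.38 between those omissions. Between the libraries, deposited TPM turned the log2 ratio of Fcgr3 to -0.029 and of Fcer1g to -0.11. The second tool called 14916 of 23709 genes, against 8801 of 14698, and gave the leading transcripts of Fcgr3 and Fcer1g shares of 69.9% and 82.8%. The cause of these changes was not tested. Library size alone moved the median of all genes to -0.17 and split 9001 calls into 3241 higher in replicate 1 and the rest lower, but left all 5 genes called higher in replicate 1, as did DESeq2 size factors, no filter on low counts and the second tool's counts. The other 10 values that moved were TPM levels: all 5 genes rescaled without short and mitochondrial RNAs, 4 with the second tool and Fcgr3 by its posterior mean. With 2 libraries the SD is itself poorly known, and no result here separates RNA input from replicate. Both libraries had the same treatment, so its effect was not tested.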
